A study of Mus musculus with 5 samples.

Results

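The genes described here are the 110 protein-coding genes whose mouse symbols begin with Vps, Chmp, Trappc, Snx, Cog or Exoc and a digit, among the 21936 protein-coding genes and 55487 genes in all that were counted by RNAseq in aortic macrophages. The rule uses their names alone, but these families were picked with earlier results of these data known. By complex they are 6 genes of retromer and retriever, 8 of HOPS and CORVET, 5 of GARP and EARP, 19 of the ESCRT machinery, 15 of TRAPP, 8 of the COG complex, 12 of the exocyst, 30 sorting nexins and 7 other VPS genes. *Vps33b*, of the related CHEVI complex, is counted with HOPS and CORVET, and the exocyst-like genes *Exoc3l*, *Exoc3l2* and *Exoc3l4* with the exocyst. Subunits with other names, such as *Snf8* of ESCRT-II, are not matched by these symbols and are described separately.

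These proteins help to decide where a membrane vesicle goes and with what it fuses. Tethering complexes catch an incoming vesicle before fusion: HOPS and CORVET on endosomes and lysosomes, GARP at the trans-Golgi network, EARP at recycling endosomes, COG and TRAPP at the Golgi, and the exocyst at the plasma membrane. ESCRT proteins sort ubiquitinated cargo into multivesicular bodies and reseal damaged membranes, whereas retromer, retriever and sorting nexins bring receptors back from endosomes. In plaque macrophages, lipoproteins taken up from outside pass through these same endosomes on the way to the lysosome.

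The study compared macrophages with and without the transcription factor ZEB1. There were 2 libraries labelled WT (*Zeb1*WT/*Apoe*KO) and 3 labelled KO (*Zeb1*∆M/*Apoe*KO). According to the study's methods, WT mice carried floxed *Zeb1* alleles without Cre, and KO mice carried them with LysM-Cre, which is expressed from the *Lyz2* promoter in myeloid cells. Mice of both genotypes lacked *Apoe*, were male, and were fed chow to 8 weeks of age and then a Western diet for 10 weeks. Living cells positive for CD45, CD11b and F4/80 were sorted from digested aortas, and cells from 3 mice were pooled per genotype and condition. The statistical methods of the study call all replicates biologically independent, and its sequencing methods describe triplicate libraries, of which 2 were analysed here for WT. Whether each library came from separate animals is thus unclear, and the p-values below measure only the spread between libraries, which may be technical. The kit, for very small amounts of RNA, does not mark the strand. Replicates are called WT 1, WT 2, KO 1, KO 2 and KO 3.

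Total counts ranged from 20118545 to 50649912 per library. More than 3 counts was taken as detection, and 3 counts were between 0.0592 and 0.149 CPM, which scales counts by the library total. This floor covers counting error only, because PCR copies of 1 molecule are counted as separate reads. *Zeb1* itself had 22 counts in KO 1 and 0 in the other 4 libraries, so it did not check the genotype labels. The 12 macrophage markers summed to between 23100 and 40200 CPM in every library, but many of them were missing from some libraries. In KO 1 nearly all of the sum was *Lyz2* and *C1qb*. There *Cd14*, *Csf1r*, *Cd68* and *C1qa* had 33, 25, 10 and 5 counts, *Fcgr1* had 2 and *Itgam*, which encodes CD11b, had 0. The genes of the other sorting markers, *Adgre1* and *Ptprc*, had 1068 and 475 counts in KO 1, and *C1qc* had 257. WT 1 had 0 counts of *Cd68*, *C1qa* and *Fcgr1*, and *Itgam* had 33 counts in KO 2. *Mertk*, an efferocytosis receptor of macrophages, had 22 counts in KO 1 and 0 elsewhere. Markers of other cells also differed among libraries. Erythroid markers (5 genes) reached 8030 CPM in KO 1 and at most 3.73 CPM in the others, and T cell markers (7 genes) reached 3930 CPM in WT 2 and between 1.15 and 894 CPM in the others. Fibroblast markers (6 genes, with *Lum* at 0 in every library) separated the genotypes, at 0.149 and 0 CPM in the WT libraries and 1.93, 531 and 2.23 CPM in the KO libraries. The larger single counts were *Dcn* in KO 2 (19005 counts, and at most 1 elsewhere) and *Col1a2* in KO 3 (111 counts). Neutrophil markers (6 genes, with *Ly6g* never above 1 count) summed to between 39.5 and 3590 CPM. Endothelial markers (5 genes, with *Cdh5* at 0 in every library) separated them in the other direction, at 72.3 and 72.1 CPM in the WT libraries and 2.38, 0.168 and 51.9 CPM in the KO libraries. Most of these sums was *Kdr* in WT 1 (1455 counts) and *Pecam1* in WT 2 and KO 3 (2487 and 2628 counts). The part of these other cells in the results below was not tested. In bulk RNA, fewer cells of a type and less RNA per cell cannot be told apart.

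The trafficking genes were detected patchily. Of the 110 genes, 38 had more than 3 counts in WT 1, 51 in WT 2, 71 in KO 1, 41 in KO 2 and 53 in KO 3. These were 34.5%, 46.4%, 64.5%, 37.3% and 48.2% of the 110, where of all protein-coding genes 24.2%, 22.8%, 51.4%, 18.5% and 25.2% were detected. In all 5 libraries, 5 genes exceeded 3 counts (4.55%, against 4.34% of all protein-coding genes), 23 did so in a single library (20.9%, against 28.5%) and 9 in none (8.18%, against 32.8%). The 5 genes were *Chmp2a*, *Vps29*, *Snx3*, *Exoc3* and *Snx10*.

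In WT 2, KO 2 and KO 3 most of the detected genes had high counts, whereas in WT 1 and KO 1 most had low ones. At 100 counts or more, a level chosen after the data were seen, there were 14 genes in WT 1, 44 in WT 2, 8 in KO 1, 30 in KO 2 and 43 in KO 3. These were 12.7%, 40%, 7.27%, 27.3% and 39.1% of the 110, against 7.09%, 18.6%, 3.42%, 13.3% and 17.3% of all protein-coding genes. The median count of those genes lay between 2400 in WT 2 and 7780 in KO 3. Of the 76 genes that reached 100 counts anywhere, 36 did so in a single library, 22 in 2 libraries, and 18 in 3 or more. *Chmp2a*, an ESCRT-III subunit, was the only one of the 110 to reach it in all 5. The 36 genes of a single library came mostly from WT 2 (13 genes), KO 3 (12) and KO 2 (7), with 2 each from WT 1 and KO 1.

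KO 1 stood apart from the other libraries in its number of low counts. In that library 63 of the 110 genes had between 4 and 99 counts, with a median of 15, whereas the other libraries had between 7 and 24 such genes. WT 1 came next, with 24 of its 38 detected genes in this range and a median of 8. The same held for all protein-coding genes, of which 10522 were in this range in KO 1 and between 917 and 3758 in the others. KO 1 thus had the most of the 110 genes detected and the fewest at 100 counts or more. Counts of genes that separate the genotypes are given below with and without it.

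**Figure D1:**
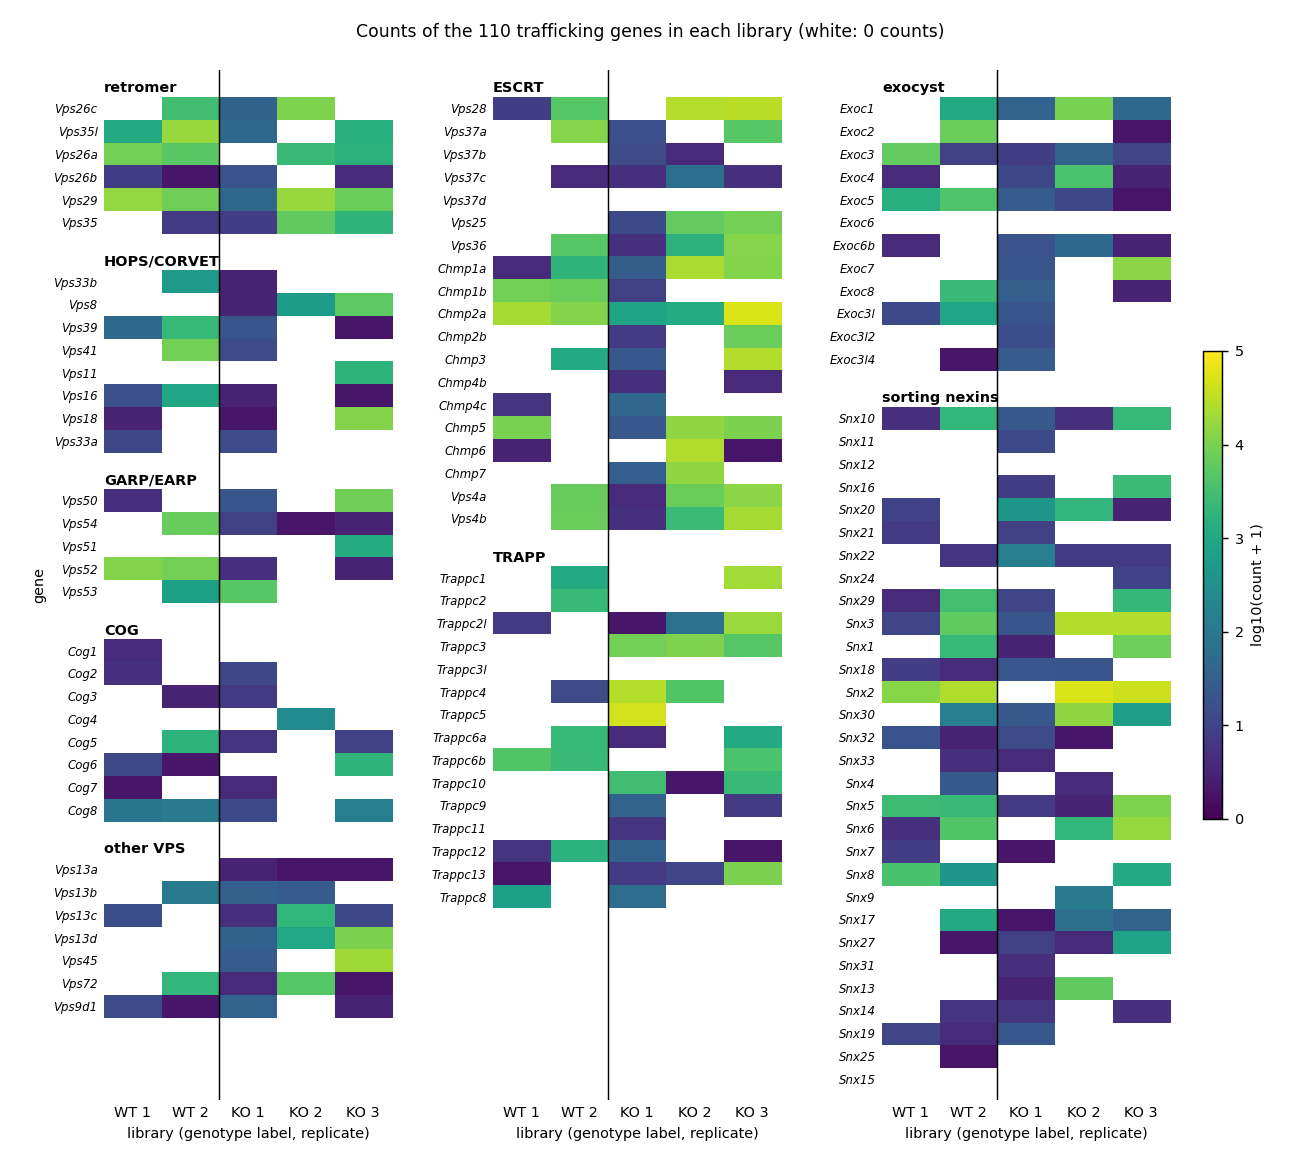
Heat map of the 110 genes, with a row for each gene, grouped by complex. Columns are the 2 WT and 3 KO libraries, separated by a vertical line, and colour shows log10(count + 1), with white for 0 counts. In KO 1 the 8 genes at 100 counts or more are spread over TRAPP, GARP and EARP, ESCRT and the sorting nexins, and 63 other genes of KO 1 are dark, between 4 and 99 counts.

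Genes at 100 counts or more in a library were often missing from another, within as well as between genotypes. Between 14.3% and 54.5% of such genes were at 3 counts or fewer when another library of their genotype was read (8 ordered pairs, median 37.4%). Between genotypes this share lay between 28.6% and 75% (12 ordered pairs, median 46.7%), and the ranges overlapped. WT 2 and KO 3 shared the most genes, 24, which were 54.5% of those of WT 2 and 55.8% of those of KO 3. WT 1 and WT 2 shared 11 genes, 78.6% of those of WT 1 and 25% of those of WT 2. Of the genes at this level in either library, WT 2 and KO 3 shared 38.1%, against 41.6% over all protein-coding genes. For WT 1 and WT 2 this was 23.4%, against 23.7%. In every pair of libraries the share was lower than over all protein-coding genes. The share of all genes missing from another library was not computed.

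**Figure D2:**
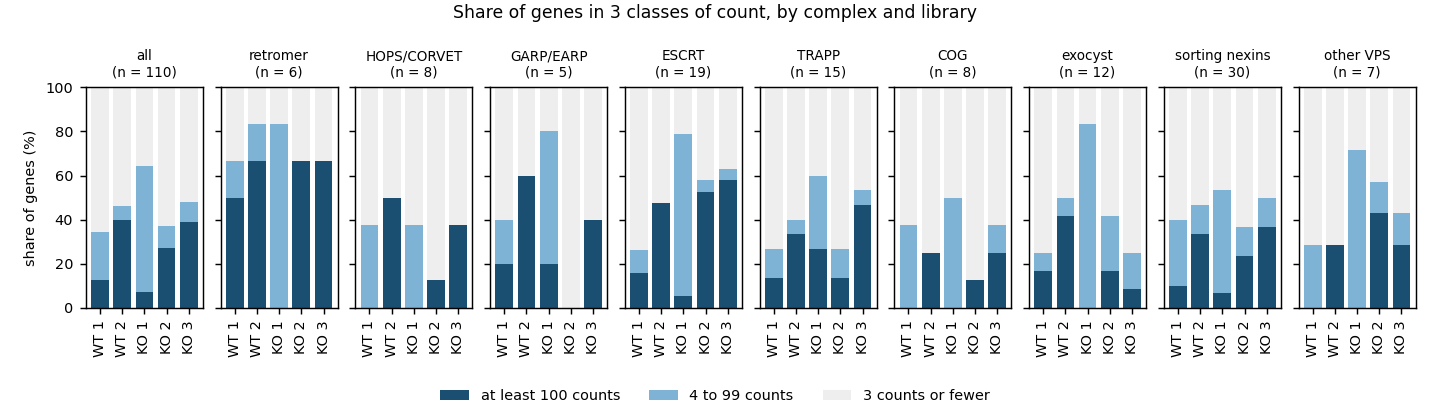
Bars give the share of genes (%) with at least 100 counts (dark), 4 to 99 counts (light) and 3 counts or fewer (grey) in each library, for all 110 genes and for each complex with its number of genes. KO 1 has the largest light share over all genes, 63 of 110, and GARP and EARP are grey throughout in KO 2.

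Retromer, a trimer of VPS35, VPS29 and VPS26 that returns receptors from endosomes to the Golgi and the cell surface, had all 3 subunits above 3 counts in every library but WT 1. At 100 counts or more it was complete in KO 2 and KO 3, with *Vps26a* as the VPS26 subunit, whereas *Vps26b* never exceeded 18 counts. *Vps29*, which retromer and retriever share, had 15320 and 8170 counts in the WT libraries and 46, 16636 and 7190 in the KO libraries. *Vps26a* had 8722 and 5304 counts in the WT libraries and 0, 2489 and 1645 in the KO libraries. Both were thus high in every library but KO 1. *Vps35*, the scaffold of the trimer, had 0 and 6 counts in the WT libraries and 7, 6064 and 1837 in the KO libraries, so that the WT libraries held the other two subunits almost without it. For retriever, which recycles integrins and other cargo of SNX17, *Vps35l* had 1071 and 16937 counts in the WT libraries and 47, 0 and 1437 in the KO libraries. All 3 retriever subunits were above 3 counts in WT 2 and KO 1, and at 100 counts or more in WT 2 alone.

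HOPS and CORVET share the core VPS11, VPS16, VPS18 and VPS33A, and no library held all subunits of either, even at 4 counts. Different libraries held different members. WT 2 had *Vps41* (8542 counts) and *Vps39* (2193), which are particular to HOPS, together with the core gene *Vps16* (873). KO 3 had the core genes *Vps18* (11654) and *Vps11* (1713) and the CORVET gene *Vps8* (5394). None of these 3 genes of KO 3 exceeded 3 counts in WT 1 or WT 2. KO 2 had *Vps8* alone, at 522 counts. *Vps33a*, which binds the SNARE proteins that drive fusion, had at most 13 counts in any library. The summed level of the 8 genes was 3.78 and 350 CPM in WT 1 and WT 2 and 2.13, 14.6 and 370 CPM in KO 1, KO 2 and KO 3.

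GARP (VPS51 to VPS54) and EARP (VPS50 in place of VPS54) were also incomplete in every library, even at 4 counts. Their 5 genes summed to 559 and 479 CPM in the WT libraries and to 206, 0.028 and 185 CPM in the KO libraries. The gene that gave most of the sum differed among libraries. *Vps52* was nearly all of it in WT 1 and 55% in WT 2, *Vps53* was 99.3% in KO 1, and *Vps50* was 86.6% in KO 3. In KO 2 the 5 genes together had 1 count. At 100 counts or more, WT 2 had 3 of the 4 GARP genes, *Vps52*, *Vps53* and *Vps54*, and no other library had more than 1. Above 3 counts, WT 2 and KO 1 had these same 3 genes. *Vps51* was counted in KO 3 alone.

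The 19 ESCRT genes summed to 1970 and 1700 CPM in WT 1 and WT 2 and to 3520 and 3950 CPM in KO 2 and KO 3. KO 1 was far lower, at 42.8 CPM, of which *Chmp2a* made up 78.6%. *Chmp2a*, a late subunit of the ESCRT-III filament, had 21451 and 11922 counts in the WT libraries and 821, 1183 and 52038 in the KO libraries. Its mean level per length was the highest of the 110 genes, at 431 CPM per kb of exon, which rests on WT 1 and KO 3. It was the highest of the 110 in WT 1, WT 2 and KO 3, at 918, 297 and 884 CPM per kb. It was far below others in KO 1 (29.0 CPM per kb, against 464 for *Trappc4*) and in KO 2 (28.5, against 529 for *Snx2*).

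Several ESCRT genes followed the same libraries. *Vps28* of ESCRT-I, *Vps36* of ESCRT-II, *Chmp1a* of ESCRT-III and both VPS4 genes, which encode the ATPase that takes the filament apart, were at 100 counts or more in WT 2, KO 2 and KO 3 and below that in WT 1 and KO 1. *Vps4a*, for example, had 0 and 6868 counts in the WT libraries and 3, 7633 and 13560 in the KO libraries. This pattern was not particular to ESCRT genes. The sorting nexins *Snx3*, *Snx6* and *Snx30*, the GTPase gene *Rab7* and the macrophage markers *Cd68* and *C1qa* had it too. *Vps25*, the partner of *Vps36* in ESCRT-II, had 0 counts in both WT libraries and 12, 6402 and 8971 in the KO libraries. *Chmp1b*, which recruits the microtubule-severing enzyme spastin, was the reverse, with 8462 and 7598 counts in the WT libraries and 8, 0 and 0 in the KO libraries. *Chmp4b*, the main filament-forming subunit, had at most 4 counts in any library and was therefore barely detectable at this depth.

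TRAPP was the only complex with its highest sum in KO 1. Its 15 genes summed to 3460 CPM in KO 1, against 254 and 279 CPM in the WT libraries and 425 and 1200 CPM in KO 2 and KO 3. The sum of KO 1 came from 4 genes. *Trappc5* had 45169 counts there and 0 in every other library. *Trappc4* had 27645 counts in KO 1 and 4331 in KO 2, 13 in WT 2 and 0 in WT 1 and KO 3. *Trappc3* and *Trappc10* supplied the rest, with 8493 and 2907 counts. TRAPPC3, TRAPPC4 and TRAPPC5 belong to the core shared by TRAPPII and TRAPPIII, and TRAPPC10 is particular to TRAPPII. The remaining 11 TRAPP genes had at most 58 counts in KO 1.

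No library held the full TRAPP core of 7 subunits. *Trappc3* alone among the 110 genes reached 100 counts in all 3 KO libraries and in neither WT library, where it had 0 counts. *Trappc6b* had 4436 and 2368 counts in the WT libraries and 0, 0 and 3796 in the KO libraries. *Trappc2* was counted in WT 2 alone (2434 counts).

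COG, the tether of vesicles moving backwards within the Golgi, had few counts in every library. None of its 8 genes reached 2000 counts, and their sum lay between 1.52 CPM in KO 1 and 52.1 CPM in WT 2. Of the 8 genes, 4 reached 100 counts in any library. *Cog5* was 93.6% of the sum in WT 2 (1688 counts), *Cog4* the whole of it in KO 2 (254) and *Cog6* 92.3% in KO 3 (1847). *Cog8* was more evenly counted, with 86 and 112 counts in the WT libraries and 12, 0 and 145 in the KO libraries.

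For the exocyst, an octamer that docks secretory vesicles, the gene with the most counts changed from library to library. It was *Exoc3* in WT 1 (6343 counts), *Exoc2* in WT 2 (7163), *Exoc1* in KO 1 and KO 2 (36 and 9828) and *Exoc7* in KO 3 (13263). *Exoc2*, *Exoc3* and *Exoc7* each had at most 38 counts in the libraries that they did not lead, and *Exoc1* had 1095 in WT 2. *Exoc3* was thus detected in all 5 libraries but with a high count in WT 1 alone. *Exoc5* had 1352 and 4148 counts in the WT libraries and 28, 11 and 1 in the KO libraries. The summed level of the 12 genes was 383 and 453 CPM in the WT libraries and 8.66, 383 and 263 CPM in the KO libraries.

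The sorting nexins bind phosphoinositides through a PX domain, and those with a BAR domain also bend the membrane. Of the 30 genes, 14 reached 100 counts in none of the libraries. *Snx2*, a BAR-domain nexin that works with retromer, gave between 36.7% and 66.7% of the counts of the family in 4 libraries. It had 13097 and 25586 counts in the WT libraries and 0, 51086 and 41500 in the KO libraries. KO 1 was thus the only library without it. Nexins of both kinds that pair beside retromer, SNX1 or SNX2 with SNX5 or SNX6, were present at 100 counts or more in every library but KO 1. *Snx3*, which recycles the Wnt carrier Wntless with retromer, had 10 and 6069 counts in the WT libraries and 21, 26119 and 26770 in the KO libraries. *Snx10*, known from endosomes of osteoclasts, had 4 and 2038 counts in the WT libraries and 24, 4 and 2258 in the KO libraries. In KO 1 the family's highest count was 441, for *Snx20*, a nexin of leukocytes that binds PSGL-1.

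The other VPS genes include the VPS13 proteins, which transfer lipids between organelles, and *Vps45*, which regulates SNARE proteins of endosomes. *Vps13d* had 0 counts in both WT libraries and 34, 982 and 10515 in the KO libraries. *Vps45* had 28 counts in KO 1, 19037 in KO 3 and 0 elsewhere. *Vps72* shares only the name, as its protein is a subunit of chromatin-remodelling complexes, and it had 0 and 1991 counts in the WT libraries and 3, 4759 and 1 in the KO libraries.

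**Figure D3:**
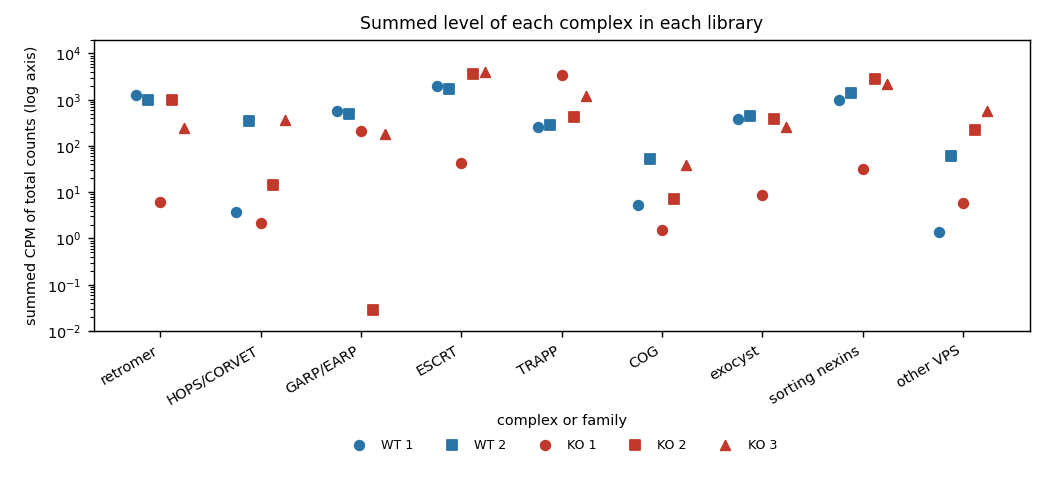
Points give the summed level of each complex (CPM of total counts, log axis) in the 2 WT libraries (blue) and 3 KO libraries (red). KO 1 is the lowest library for retromer, HOPS and CORVET, ESCRT, COG, the exocyst and the sorting nexins and the highest for TRAPP (3460 CPM), and KO 2 is lowest for GARP and EARP (0.028 CPM).

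In the comparison of genotypes, edgeR's quasi-likelihood test called no trafficking gene. It called no other gene either, so it does not show that any gene was alike in both genotypes. Among the tested genes, 15 separated the genotypes, with every KO library on the same side of every WT library. *Trappc3*, *Vps25*, *Trappc10*, *Vps13d*, *Vps8*, *Vps35* and *Snx27* were higher in every KO library, and *Vps52*, *Chmp1b*, *Vps16*, *Exoc5*, *Vps39*, *Vps35l*, *Vps26a* and *Cog8* were lower. Genes of 1 complex stood on both sides, such as *Vps35* and *Vps26a* of retromer, *Vps8* and *Vps16* of CORVET, and *Vps25* and *Chmp1b* of the ESCRT machinery.

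Of the 110 genes, 67 passed the filter on low counts. None of the 67 had an adjusted p under 0.05 (0 genes, where 0% of all 7905 genes tested were called), and the lowest adjusted p was 1. The edgeR test gave an unadjusted p of 0.0293 for *Trappc3* and of 0.034 for *Trappc4*. These were the only genes of the 67 under 0.05 (2 genes, against 1.09% of all genes tested). The standard errors of the 67 log2 fold changes lay between 3.11 and 8.73 (median 4.95). The fitted value was higher in KO for 41 genes and lower for 26, with a median of 0.66 beside 0.78 for all genes tested. Without overlap, 7 of the 67 (10.4%) were higher in KO, against 6.68% of all genes tested, and 8 (11.9%) were lower, against 4.54%. A gene that passed the filter through a single genotype had to differ, so these counts were not tested.

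Other tools called some of these genes. DESeq2 gave an adjusted p to 46 of the 110 genes and called 6 as higher (*Vps35*, *Vps8*, *Vps25*, *Trappc3*, *Trappc10* and *Vps13d*) and 3 as lower (*Vps52*, *Trappc2* and *Exoc2*), beside 6.87% and 5.25% of all genes with an adjusted p. limma-voom with sample quality weights called 5 as higher (*Vps35*, *Vps8*, *Vps25*, *Trappc3* and *Vps13d*) and 2 as lower (*Vps52* and *Chmp1b*), beside 2.21% and 0.746% of all genes. The calls of both tools had 6 genes in common. Counts were also simulated with the spread estimated here for every gene and a single size of change. In them, most calls of either tool were of unchanged genes. That share depends on these settings and does not measure how many of the calls here are false. *Trappc2* and *Exoc2* had more than 1 count in WT 2 alone, so the calls of DESeq2 for these genes rest on that library.

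**Figure D4:**
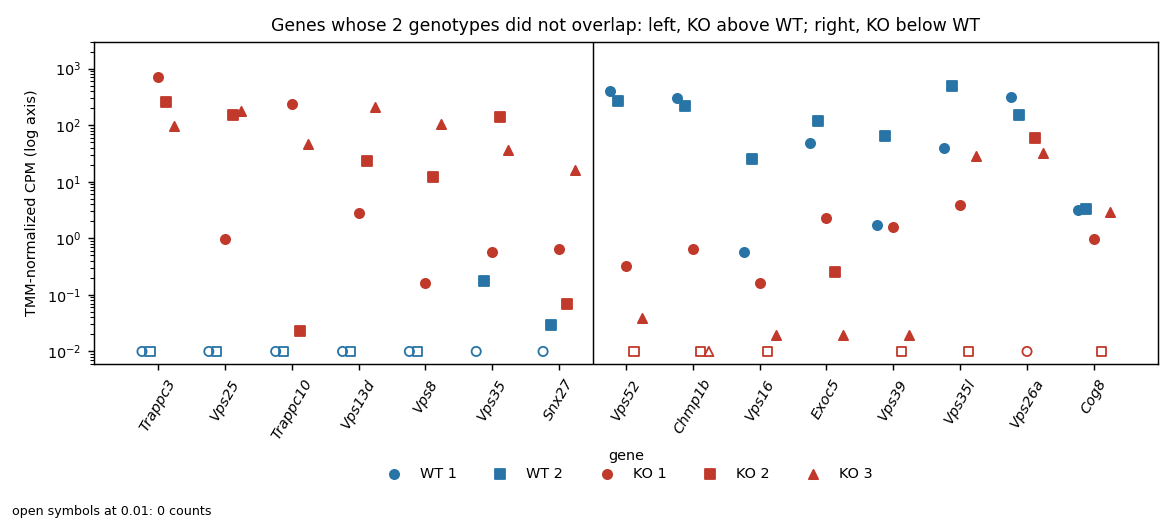
TMM-normalized CPM (log axis) of the 15 genes whose genotypes did not overlap, 7 with KO above WT on the left and 8 with KO below WT on the right. Blue points are the 2 WT libraries, red points the 3 KO libraries, and open symbols drawn at 0.01 have 0 counts. *Trappc3* has its lowest KO library at 95.9 CPM, whereas each other gene on the left has a KO library at 2.81 CPM or less. *Vps52* and *Chmp1b* have their lowest WT library at 264 and 220 CPM and all KO libraries at 0.66 CPM or less.

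Among the 7 genes that were higher in every KO library, *Trappc3* differed from the rest in being high in each of them, at 701, 252 and 95.9 TMM-normalized CPM. Of the 7, 6 had 3 counts or fewer in both WT libraries, and 5 had under 100 counts in KO 1. For *Vps25* the KO libraries had 0.99, 150 and 179 CPM and both WT libraries 0, so that the KO mean was at least 1122-fold higher than 3 counts in each WT library. For *Trappc10* the KO libraries had 240, 0.0234 and 46.2 CPM, so that KO 2 stood above the WT libraries by 1 count. Against the floor its KO mean was at least 975-fold higher, a value that fell to 236-fold without KO 1.

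*Vps13d* had 2.81, 23 and 209 CPM and *Vps8* 0.165, 12.2 and 107 CPM in the KO libraries, so KO 1 was the lowest of the 3 for both. The means were at least 801-fold and 408-fold higher than the WT floor, values that rest on KO 3, without which they were 132-fold and 63.2-fold. *Vps35* had 0 and 0.174 CPM in the WT libraries and 0.578, 142 and 36.6 CPM in the KO libraries. The log2 fold change of *Vps35* was 9.35 (standard error 7.58), and KO 1 stood above WT 2 by 1 count. *Snx27*, which joins retromer to cargo with a PDZ-binding end, had 0 and 1 counts in the WT libraries and 8, 3 and 794 in the KO libraries. Its count in KO 2 thus did not exceed the floor, and its mean, at least 56-fold higher than the floor, rests on KO 3, without which it was 3.73-fold. The fibroblast marker sum was also higher in every KO library, and its part in these 7 genes was not tested.

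Of the 8 genes that were lower in KO, 3 had at least 100 counts in both WT libraries and under 100 in every KO library, namely *Vps52*, *Chmp1b* and *Exoc5*. *Vps52* had 407 and 264 CPM in the WT libraries and 0.33, 0 and 0.0398 CPM in the KO libraries. *Chmp1b* had 306 and 220 CPM against 0.66, 0 and 0 CPM. *Exoc5* had 49 and 120 CPM against 2.31, 0.257 and 0.0199 CPM, with a log2 fold change of −6.62 (standard error 5.69). In most of the other 5 genes the separation was narrower. *Vps39* had 1.7 CPM in WT 1 and 1.57 CPM in KO 1, *Cog8* had 3.11 and 3.25 CPM in the WT libraries and 2.89 CPM in KO 3, and *Vps35l* had 38.8 CPM in WT 1 and 28.6 CPM in KO 3. *Vps26a* had 58.2 and 32.7 CPM in KO 2 and KO 3, below 316 and 154 CPM in the WT libraries. *Vps16* had 16 and 873 counts in the WT libraries and at most 2 in the KO libraries, and against the floor its WT mean was at least 103-fold higher, which rests on WT 2, since it was 4.6-fold with WT 1 alone. KO 2 had 0 counts of 6 of the 8 genes. The endothelial marker sum was also lower in every KO library, and its part in these genes was not tested.

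With 2 and 3 libraries there are 10 ways to split them, so an exact two-sided permutation test on a gene's values has 0.1 as its smallest p. The 15 genes were chosen for their separation, so no such p is given for them. With 1 library left out, a larger share of all genes tested separated the genotypes. Without KO 1, 11 of the 48 genes then tested were higher (22.9%, against 16.7% of all genes tested) and 9 lower (18.8%, against 13.0%) in both remaining KO libraries. Without KO 2, 7 of 56 were higher (12.5%, against 14.2%) and 9 lower (16.1%, against 8.03%), and without KO 3, 9 of 54 were higher (16.7%, against 11.3%) and 11 lower (20.4%, against 10.2%). Without WT 1, 15 of 89 were higher (16.9%, against 10.1%) and 24 lower (27%, against 20.6%). Without WT 2, 19 of 84 were higher (22.6%, against 12.1%) and 14 lower (16.7%, against 12.4%).

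Partner genes with other names were read in the same way, from a list of 62 genes that belong to or act with these complexes. None of the 32 that passed the filter was called by edgeR (0 genes), and 1 had an unadjusted p under 0.05. Without overlap, 1 was higher in KO (3.12%, against 6.68% of all genes tested) and 4 were lower (12.5%, against 4.54%). *Vta1*, the cofactor of VPS4, was higher in every KO library, with 0 and 80 counts in the WT libraries and 6250, 685 and 29762 in the KO libraries. *Snf8*, the remaining ESCRT-II gene, was lower, with 1328 and 1271 counts in the WT libraries and 3, 2 and 7 in the KO libraries. *Snf8* was thus at 100 counts or more in the WT libraries and *Vps25* in KO 2 and KO 3, and no library had all 3 ESCRT-II subunits at that level, although KO 3 had them all above 3 counts.

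*Ralb*, a small GTPase that binds the exocyst, had 1056 and 1702 counts in the WT libraries and 10, 0 and 0 in the KO libraries. *Washc2*, the subunit that joins the actin-nucleating WASH complex to retromer, had 12 and 13772 counts against 0 in all 3 KO libraries (unadjusted p = 0.0309 in edgeR). *Ist1* of ESCRT-III had 11631 and 7762 counts against 11, 187 and 7568. These 3 genes and *Snf8* were the partners that were lower in every KO library. *Tsg101*, the ubiquitin-binding subunit of ESCRT-I, was counted in KO 3 alone, at 23932 counts. *Rab7*, the GTPase that HOPS binds, had 0 and 48194 counts in the WT libraries and 2, 26842 and 79894 in the KO libraries, so its genotypes overlapped. DESeq2 gave an adjusted p to 29 of the 62 genes and called 2 in each direction, beside 6.87% higher and 5.25% lower of all genes with an adjusted p. limma-voom called 1 of the 32 tested genes in each direction, beside 2.21% and 0.746% of all genes.

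ZEB1 binds E-boxes, of which CAGGTG and its reverse complement CACCTG were searched here in the 250 bases before each RefSeq gene start on GRCm38.p6. Both strands were covered, and the 2 forms do not overlap each other. Of the 110 genes, 79 matched the RefSeq promoter table, and 16 of these (20.3%) held the motif in at least 1 promoter, against 19.4% of all 27025 genes in that table. Among the 7 genes that were higher in every KO library, 5 had a promoter in the table and 2 of these, *Vps8* and *Vps13d*, held the motif. Among the 8 that were lower, 5 had a promoter and 0 held it. *Vps13d* has 2 listed starts, and its match lies before the one that is inside the gene. Shown here are the promoter of *Trappc3*, the gene that was high in every KO library and at 0 in WT, and that of *Vps8*, a gene of the same direction that holds the motif. Both lie on the plus strand and are given up to the base before the first annotated exon, 170 bases for *Trappc3* (chr4:126262155-126262324) and 250 bases for *Vps8* (chr16:21422868-21423117), with the motif in capitals.
Trappc3: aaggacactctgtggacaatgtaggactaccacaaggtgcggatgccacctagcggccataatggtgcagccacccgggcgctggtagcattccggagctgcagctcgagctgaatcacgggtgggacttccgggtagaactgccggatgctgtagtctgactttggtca
Vps8: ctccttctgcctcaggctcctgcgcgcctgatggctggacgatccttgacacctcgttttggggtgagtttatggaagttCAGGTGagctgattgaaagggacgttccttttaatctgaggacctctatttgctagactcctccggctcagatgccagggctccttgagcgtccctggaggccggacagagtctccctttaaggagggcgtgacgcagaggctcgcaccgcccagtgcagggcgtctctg
The *Vps8* match begins 170 bases before the gene start, and the *Trappc3* promoter holds none. A match of 6 letters describes the sequence and is not a binding site, and the absence of a match says only that these letters are not in this window.

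Some of these counts may include reads of a neighbour, since the kit does not mark the strand. Of the 110 genes, 30 share exon bases with another protein-coding gene in GENCODE M21. *Vps25* shares 1103 bases (67.2% of its exon length) with *Ramp2* on the same strand, and *Ramp2* had 8 and 0 counts in the WT libraries and 5, 542 and 11 in the KO libraries. *Trappc4* shares 462 bases with the ribosomal gene *Rps25* on the opposite strand, which had 4109 and 4710 counts in the WT libraries and 16744, 10153 and 10305 in the KO libraries. *Snx22*, at 137 counts in KO 1, shares 825 bases with *Ppib*, which had 96502 counts there. *Vps35* shares 171 bases (1.92% of its exon length) with *Orc6*, at 10460 counts in KO 2. *Vps52* shares 156 bases (3.93% of its exon length) with the ribosomal gene *Rps18* on the opposite strand. *Rps18* had 224 and 5103 counts in the WT libraries and 17796, 10649 and 11493 in the KO libraries. *Cog5* shares 1514 bases (24.0%) with *Hbp1* on the opposite strand. *Hbp1* had 165 and 9122 counts in the WT libraries and 1, 0 and 17033 in the KO libraries. *Trappc3* shares no exon base with another gene. In addition, 12 genes have a copy elsewhere of at least 300 bases at 95% identity or more, among them *Snx2*, whose pseudogene had at most 43 counts, and *Vps8*, with a repeated stretch found in 49 other genes. Of these, the pseudogene *Gm47036* (98.0% identity) had 1340 counts in KO 2, where *Vps8* had 522, and at most 44 in the other libraries. The part of these neighbours and copies in the counts was not tested.

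Exon length was set beside the number of libraries in which a gene reached 100 counts. Across the 110 genes, which are not independent replicates, Spearman's rho was −0.121. The 18 genes at that level in 3 or more libraries had a median exon length of 2930 bases, and the 34 genes at that level in none had 4770 bases. Between them, the 36 genes of 1 library had 4950 bases and the 22 genes of 2 libraries had 4920, so the median did not fall steadily.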

How the data were processed

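RNAseq libraries of sorted aortic macrophages, 2 WT and 3 KO, were grouped by their labels. The authors mapped reads to GRCm38 with STAR 2.5.3a and estimated expected counts per gene with RSEM 1.3.0 on the mouse GENCODE version 25 annotation. The deposited expected counts are whole numbers and are not normalized. The genes, complexes, partner lists and markers were chosen with earlier results of these data known. The sets of subunits counted as complete complexes were drawn up after the values were seen. The main analysis used edgeR 4.0.16 (R 4.3.3): filterByExpr (minimum count 10), TMM (factors 1.42, 1.06, 0.515, 1.25 and 1.03) and the quasi-likelihood test, without covariates, with Benjamini-Hochberg adjustment over all 7905 genes tested. Standard errors were derived from the F statistic. CPM called TMM-normalized use the counts of tested genes, and the summed CPM of markers and complexes and the CPM per kb use total counts. A fold against a genotype at 3 counts or fewer was computed against 3 counts per library, averaged over its libraries, and is a lower bound.

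Named genes were the 3 that the study drew (*Trappc3*, *Vps52* and *Chmp1b*), *Vps50* to *Vps54*, all genes without overlap, those detected in 5 libraries, the highest per kb in each complex and the 2 highest in each library. Genes named beyond these were chosen after their values were seen. The alternatives were DESeq2 1.42.0, limma 3.58.1 (voom with quality weights), RLE and upper-quartile scaling, other filters and floors, the replicate number as a block and each library left out in turn. The tests were checked on simulated counts, in which all genes had the same spread and all changes the same size. At a small spread all of edgeR, DESeq2 and limma-voom recovered most changed genes. At the spread estimated here edgeR recovered none, and most calls of DESeq2 and limma-voom were false. These outcomes depend on those settings, so the share of false calls need not hold for the real counts. Exon overlaps and lengths came from GENCODE M21, which all 110 genes matched, promoters from the RefSeq table (GRCm38.p6) and copies from BLAST 2.17.0.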

Additional observations from a re-analysis of the deposited data

How the results depend on the processing

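Called genes numbered 9 with DESeq2 and 7 with limma-voom, and 0 with each of the other settings tried. With every gene of at least 1 count, 11 of 105 genes were without overlap and higher in KO (10.5%, against 3.11% of all genes) and 7 lower (6.67%, against 2.24%). The higher genes numbered 0 when 10 counts were required in every library (which left 3 genes), and between 7 and 19 with 1 library left out. Those lower in KO numbered 0 with 10 counts in every library and between 9 and 24 with 1 library left out. Genes detected in every library numbered 3 at a floor of 10 counts, 2 at 1 CPM, 3 with all libraries thinned to the shallowest and 1 at 100 counts, and between 6 and 12 with 1 library left out. WT 1 had 25 genes at a floor of 10 counts and 14 at 100, and KO 1 had 8 at 100. Of 28 named genes tested, 22 kept their direction in every setting in which they could be fitted, which was between 6 and 12 of the 12 settings. These include all 15 genes without overlap. Those were named for their separation, so their direction was largely fixed by that choice and does not measure robustness. The 6 genes that reversed in a setting were all among the other named genes. *Snx2* reversed with DESeq2 (−0.26), limma-voom (−0.11), RLE (−0.34), upper-quartile scaling (−4.15) and the replicate block (−6.50), and lay between −0.48 and 0.56 with 1 library left out. *Snx10* became 0 with limma-voom and 0.17 with upper-quartile scaling (−4.62 to 6.73 with 1 library left out), *Vps28* −0.66 with the replicate block and *Vps53* −3.75 with limma-voom. With 1 library left out, *Chmp2a* lay between −3.40 and 0.23 and *Exoc3* between −8.86 and 1.22. The cause of these changes was not tested. Fewer genes remained where a filter was stricter, and fewer libraries where 1 was left out. The median log2 fold change of all genes was 0.78 with TMM, 1.24 with RLE and 0.29 with upper-quartile scaling. Leaving out a WT library leaves 1, which is assumed to vary like the KO libraries. Replicate numbers 1 and 2 occur in both genotypes but are only numbers. The deviations of same-numbered libraries had correlations of 0.237 and 0.071, and with the replicate block 0 of 54 genes tested were called, with 0 at an unadjusted p under 0.05. At this depth, a gene at 3 counts or fewer could not be told from an absent one.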
